A study of Mus musculus with 44 samples.

Results

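The liver response to a single treadmill run was examined in male C57BL/6N mice that had been fed a diet enriched in vitamin E. Of the 44 livers of the series, 22 belonged to this comparison, and they were chosen by the sample titles alone: 12 exercised and 10 sedentary mice, all fed for 4 weeks on a purified diet that contained vitamin E at 2000 IU/kg and vitamin C at 100 mg/kg. The exercised mice ran for 60 min at 13 m/min on a 14° slope, while the sedentary mice did not run and had no access to food over that hour. All were 11 to 12 weeks old. The remaining 22 livers came from 12 exercised and 10 sedentary mice on a control diet (vitamin E at 149 IU/kg, vitamin C at 0 mg/kg), and their response is set beside that on the vitamin E diet. They also entered the common fit, so that they bear on the spread behind each p and on which probe sets were tested. The vitamin E diet also differed in vitamin C, so the vitamins cannot be told apart.

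Each liver was measured on 1 whole-transcript array, and the values are log2 expression, so that a difference of 1 is a doubling. The arrays read pieces of whole liver, in which fewer cells of a type and less RNA per cell cannot be told apart. Hepatocyte markers were high in every mouse on this diet, with a mean over the 7 tested genes (Alb, Apoa1, Ttr and others) between 10.88 and 10.96 in sedentary and between 10.84 and 10.97 in exercised livers. Some mice stood apart in markers of immune cells. The mean over 14 Kupffer cell and macrophage genes was 6.12 and 5.79 in sedentary mice 1 and 3 and 5.89 in exercised mouse 2, with group medians of 4.57 and 4.37, and the mean of the neutrophil genes S100a8 and S100a9 was 5.56, 2.56 and 4.06 in the same mice, with medians of 1.26 and 1.56. Exercised mouse 6 had a neutrophil mean of 3.08. Results are therefore also given without the first 3 mice.

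During a run the liver releases glucose to the working muscle, first from glycogen and then by making it anew from lactate, glycerol and amino acids. Falling insulin and rising glucagon, catecholamines and glucocorticoids drive this switch. Glucagon and catecholamines act through cyclic AMP and the transcription factor CREB, glucocorticoids through their nuclear receptor, and genes that answer directly to such signals can change their transcript level within the hour. Vitamin E, mainly α-tocopherol, is a lipid-soluble antioxidant that reaches the liver in lipoproteins.

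Of 18522 tested probe sets, 37 rose with exercise (0.2%) and 6 fell (0.0324%) at a limma p under 0.05 after Benjamini-Hochberg adjustment. Of those that rose, 33 carried 1 gene symbol, 1 several and 3 none, and of those that fell, 4 carried 1 symbol and 2 none. The rises went up to 2.75 on the log2 scale and 16 of them were larger than 1, and of the 6 falls 4 were larger than 1. Among the named genes that rose were signalling inhibitors, kinases, phosphatases, transcription factors, transporters and enzymes of amino acid metabolism.

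**Figure D1:**
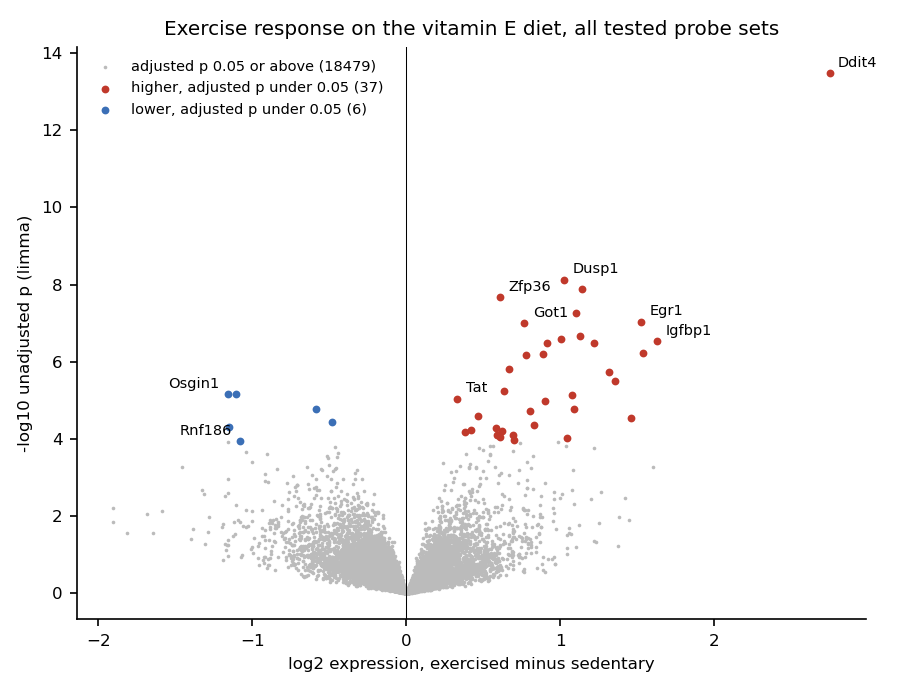
Each point is 1 of the 18522 tested probe sets, with the log2 difference between 12 exercised and 10 sedentary mice on the vitamin E diet on the x axis and the negative log10 of the unadjusted limma p on the y axis. Ddit4 lies far above all others, 37 probe sets rose (red) and 6 fell (blue).

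Ddit4, a stress-induced inhibitor of the growth kinase complex mTORC1, had the largest rise. Its log2 expression was 1.77, 2.95 and 4.35 (lowest, median and highest) in sedentary mice and 5.04, 5.63 and 6.76 in exercised mice. The group means were 2.89 ± 0.79 (SD, n = 10) and 5.64 ± 0.55 (SD, n = 12), a difference of 2.75 (standard error 0.25, adjusted p = 6.06e-10 from limma), or 6.72-fold. Every exercised mouse lay above every sedentary mouse, which was the case for 8 of the 18522 probe sets (0.0432%), all of them among the 37 that rose. The other 7 were Igfbp1, Egr1, Rasgef1b, Sgk1, Dusp1, Got1 and Zfp36. The reverse, all exercised mice below all sedentary ones, was found for 1 probe set (0.0054%) that did not pass the test.

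Of 20 tested targets of the glucocorticoid receptor, 5 rose (Ddit4, Igfbp1, Sgk1, Dusp1 and Tat) and 0 fell. For this and every list below, the shares over all tested probe sets are 0.2% risen and 0.0324% fallen. The lists were chosen with earlier results of these data known, so a higher share in a list is no separate support. The list had a median log2 difference of 0.39, where the median over all tested probe sets was -0.02. Igfbp1, a secreted protein that holds back insulin-like growth factors, was at 7.03, 8.87 and 9.26 (lowest, median and highest) in sedentary and at 9.63, 10.32 and 10.82 in exercised mice. It rose by 1.63 (standard error 0.27, adjusted p = 0.000514), or 3.09-fold, with no overlap between the groups. Sgk1, a kinase that regulates ion channels and transporters, was at 2.70, 3.09 and 3.37 in sedentary and at 3.57, 4.29 and 4.84 in exercised mice. Its rise of 1.10 (standard error 0.17, adjusted p = 0.000207) again left the groups apart. Tat, the enzyme that begins tyrosine breakdown, was already near the top of the scale, with 10.53, 10.74 and 11.07 in sedentary and 11.03, 11.10 and 11.23 in exercised mice, and its rise of 0.33 (adjusted p = 0.00736) was the smallest of the 33 named genes.

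Other genes of that list did not pass, with the clock gene Per1 closest. Per1 differed by 0.50 (standard error 0.12, unadjusted p = 0.000195, adjusted p = 0.0681), and 8 of 12 exercised mice lay above the highest sedentary mouse. The transcription factor Cebpd was 0.41 higher (unadjusted p = 0.0022), and the cell cycle inhibitor Cdkn1a was 1.45 higher with a wide spread (SD 1.36 and 1.31, unadjusted p = 0.0125). In the opposite direction lay Bcl6, a transcriptional repressor, which averaged 7.77 ± 0.57 (SD, n = 10) without and 6.89 ± 0.77 (SD, n = 12) with exercise (difference -0.88, unadjusted p = 0.0143, adjusted p = 0.58).

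**Figure D2:**
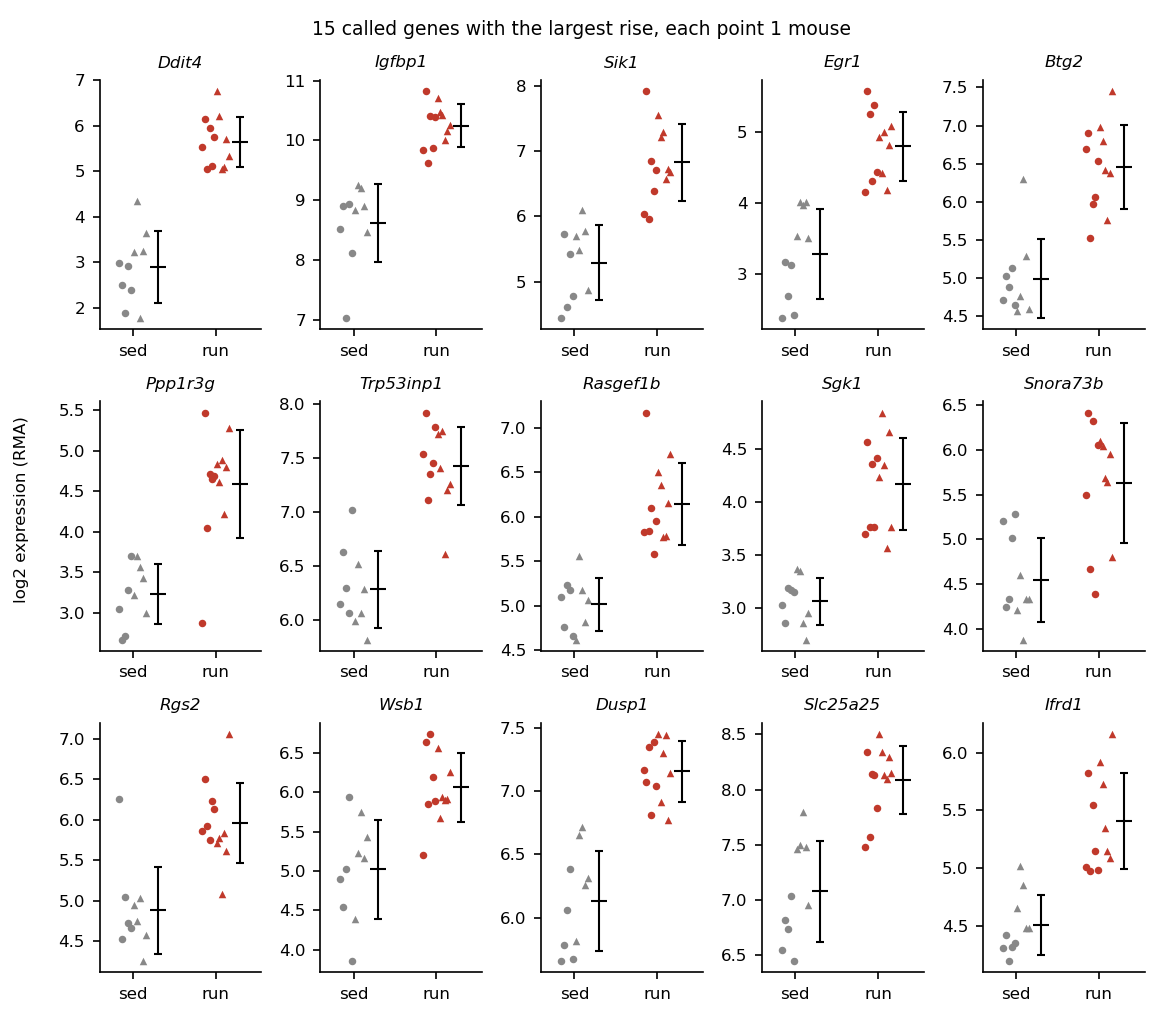
Log2 expression of the 15 genes with the largest rise, with each point 1 mouse (grey, 10 sedentary; red, 12 exercised; circles, animal numbers starting with 24; triangles, with 27) and bars the mean and SD. Ddit4, Igfbp1, Egr1, Rasgef1b, Sgk1 and Dusp1 show no overlap, while single mice such as sedentary mouse 1 for Rgs2 and sedentary mouse 8 for Btg2 lie within the other group.

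Among targets of cyclic AMP and CREB, 2 of 16 tested genes rose and 0 fell, with a median of 0.46. Without the 3 mice that stood apart, the median was 0.34 here and 0.38 for the glucocorticoid list. Sik1, a kinase that CREB induces and that in turn restrains CREB coactivators, was at 4.44, 5.46 and 6.11 in sedentary and at 5.96, 6.72 and 7.92 in exercised mice. The difference was 1.53 (standard error 0.26, adjusted p = 0.000822), and 10 of 12 exercised mice exceeded all sedentary mice. Rgs2, which dampens G-protein signalling, rose by 1.08 (adjusted p = 0.00624), but sedentary mouse 1 at 6.26 lay above all except 2 exercised mice. A second probe set of Rgs2 differed by 0.77 and did not pass (adjusted p = 0.317).

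Several genes of this group, some of which serve glucose production, had values in the same direction without passing. The nuclear receptor Nr4a1 was at 2.67 ± 0.73 (SD, n = 10) and 4.26 ± 1.05 (SD, n = 12), a difference of 1.60 with a standard error of 0.43 (adjusted p = 0.131). G6pc, the catalytic subunit of glucose-6-phosphatase that frees glucose for export, was at 9.24, 9.80 and 10.01 in sedentary and at 9.99, 10.44 and 10.77 in exercised mice. All except 1 exercised mouse lay above the sedentary range, yet the difference of 0.78 had a standard error of 0.20 from the common fit and an adjusted p of 0.11. Irs2, an adaptor of the insulin receptor, differed by 0.82 (unadjusted p = 0.00205, adjusted p = 0.278) and the coactivator Ppargc1a by 0.42 (unadjusted p = 0.0453, adjusted p = 0.794). Pdk4, a kinase that holds back pyruvate oxidation, was at 4.42 ± 0.75 (SD, n = 10) and 5.62 ± 1.07 (SD, n = 12), or 2.30-fold (unadjusted p = 0.00369, adjusted p = 0.358).

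In the list of gluconeogenesis and glucose handling only Ppp1r3g passed, of 18 tested genes (median 0.06). Ppp1r3g guides a phosphatase to glycogen and favours glycogen storage after a meal. It was at 2.67, 3.25 and 3.70 in sedentary and at 2.87, 4.70 and 5.47 in exercised mice, a rise of 1.36 (standard error 0.25, adjusted p = 0.00336). A single exercised mouse lay within the sedentary range and the other 11 above it.

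Immediate early genes, which respond to signals without new protein synthesis, were represented by Egr1 and Btg2, 2 of 16 tested genes. Egr1, a zinc finger transcription factor, was at 2.37, 3.33 and 4.01 in sedentary and at 4.16, 4.88 and 5.58 in exercised mice, with no overlap and a rise of 1.52 (standard error 0.24, adjusted p = 0.000261). Btg2, an antiproliferative factor that promotes mRNA deadenylation, rose by 1.46 (standard error 0.31, adjusted p = 0.0184), although sedentary mouse 8 reached 6.30. The other 14 genes of the list did not pass, and its median was 0.16. Jun came closest, with 4.85 ± 0.30 (SD, n = 10) and 5.58 ± 0.36 (SD, n = 12), a difference of 0.74 and an adjusted p of 0.0505.

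Of 14 tested genes of MAP kinase feedback and mRNA decay, 2 rose and 0 fell (median 0.10). Dusp1, a phosphatase that inactivates MAP kinases, was at 5.66, 6.16 and 6.72 in sedentary and at 6.77, 7.16 and 7.45 in exercised mice, and it rose by 1.02 (standard error 0.14, adjusted p = 6.92e-05) without overlap. Zfp36, which binds AU-rich elements and speeds the decay of cytokine mRNAs, was at 8.42, 9.08 and 9.199 in sedentary and at 9.26, 9.62 and 10.02 in exercised mice. Its rise of 0.61 (standard error 0.09, adjusted p = 9.72e-05) was moderate in size but again without overlap. These were the 2 that passed. Dusp6, the phosphatase specific for ERK, rose by 0.83 (adjusted p = 0.0265), while its second probe set, which the list count uses, differed by 0.50 and did not pass (adjusted p = 0.14). The related Zfp36l2 differed by -0.41 at an unadjusted p of 0.024 only.

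Trp53inp1, a stress protein of the p53 pathway that takes part in autophagy, rose by 1.14 (standard error 0.16, adjusted p = 8.19e-05), from 6.28 ± 0.35 (SD, n = 10) to 7.43 ± 0.36 (SD, n = 12), and 11 of 12 exercised mice lay above all sedentary mice. Together with Ddit4, the pseudokinase Trib1, which rose by 0.59 (adjusted p = 0.0287), passed in the list of mTORC1 brakes and growth arrest, 2 of 14 tested genes (median 0.26, and 0.19 without the 3 mice that stood apart). Trib1 passed in 14 of 22 fits that each left out 1 mouse, and without the 3 mice its adjusted p was 0.246. In that list Gadd45g, a growth arrest gene, differed by 1.08 (adjusted p = 0.138), with a sedentary range from 4.03 to 7.37. Sesn3, a sestrin that restrains mTORC1, was lower, with a difference of -0.34 (unadjusted p = 0.00108, adjusted p = 0.19) and 6 of 12 exercised mice below the sedentary range. The direction was thus not shared by all members of the list.

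Amino acid metabolism contributed 3 genes of 19 tested, Slc38a2, Got1 and Tat, with a list median of 0.07. Got1, the cytosolic aspartate aminotransferase that links amino acids to gluconeogenesis, was at 9.53, 9.97 and 10.31 in sedentary and at 10.44, 10.63 and 11.12 in exercised mice. It rose by 0.77 (standard error 0.12, adjusted p = 0.000261) without overlap. Slc38a2, a sodium-coupled importer of alanine and glutamine, rose by 0.88 (standard error 0.15, adjusted p = 0.000822), from 8.23 ± 0.40 (SD, n = 10) to 9.12 ± 0.29 (SD, n = 12). The urea cycle enzymes Arg1 and Asl were 0.12 and 0.18 higher (unadjusted p = 0.0155 and 0.041) and did not pass. Of the mitochondrial carriers, Slc25a25, which exchanges ATP-magnesium for phosphate, rose by 1.01 (adjusted p = 0.000514), and the glutamate carrier Slc25a22 by 0.61 (adjusted p = 0.0407).

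The remaining named genes that rose belong to diverse functions. Rasgef1b, an exchange factor for Ras-like GTPases, rose by 1.13 (adjusted p = 0.00051) with no overlap, its sedentary values ending at 5.56 and its exercised values starting at 5.58. The small nucleolar RNA Snora73b rose by 1.09 (adjusted p = 0.0118), Wsb1, part of a ubiquitin ligase, by 1.04 (adjusted p = 0.0434) and Ifrd1, a transcriptional coregulator, by 0.90 (adjusted p = 0.00816). The repressor Klf3 rose by 0.66 (adjusted p = 0.00182) as the only 1 of 20 tested Krüppel-like and hepatocyte transcription factors. Among the last were values in both directions that did not pass, with Cebpb 0.32 and Klf15 0.26 higher (unadjusted p = 0.000703 and 0.00457) and Cebpa at -0.32, Foxa2 at -0.60 and Klf10 at -0.56 (unadjusted p = 0.00066, 0.00185 and 0.00688). The other 10 named genes that rose lay between 0.38 and 0.80, among them the elongation factor Ell2, the tumour necrosis factor receptor Tnfrsf1b, the kinase Pim3 and the endoplasmic reticulum-phagy receptor Retreg1. A second probe set of Ell2 differed by 0.31 and did not pass (adjusted p = 0.187). Some of these calls were lost on leaving out any 1 of many mice. In 22 fits that each left out 1 mouse, Wsb1 and Tnfrsf1b passed in 7 and Frmd4b in 8. Retreg1, Setdb2 and Slc25a22 passed in 9 and Vgll4 in 10.

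To see what the start regions of these genes share, 300-base windows from RefSeq (build GRCm38.p6), reaching from 250 bases before to 50 bases after a transcription start, were searched on both strands for 5 motifs. Windows were found for 28 of the 33 named genes that rose, 44 windows in all. The full cyclic AMP response element TGACGTCA stood in 6 of the 44 windows (13.6%), 1 in each of 6 genes, against 1.79% of all 32851 windows. The glucocorticoid response element (GNACA and TGTNC, 3 bases apart) stood in 1 window (2.27%, against 0.475%), that of Sgk1. CACGTG, the E-box, stood in 5 windows (11.4%, against 7.15%), the serum response CArG box in 1, that of Zfp36 (2.27%, against 1.63%), and the forkhead motif TGTTTAC in 0 (against 3.65% of all windows). No match of these overlapped another. The 32851 windows were not limited to genes tested here. Whether the risen genes differ from other tested genes in these motifs was not tested. In the 4 windows of 3 of the 4 named genes that fell, 0 of the motifs were found. The stretches around the cyclic AMP element are shown because 6 of the risen genes have it in common, and that around the glucocorticoid element because Sgk1 is on the list of its receptor's targets. They run 5′ to 3′ along the gene, with the element in capitals and all bases before the start.
Btg2 (chr1:134079288-134079347, minus strand): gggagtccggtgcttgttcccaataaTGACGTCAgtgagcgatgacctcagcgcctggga
Wsb1 (chr11:79254700-79254759, minus strand): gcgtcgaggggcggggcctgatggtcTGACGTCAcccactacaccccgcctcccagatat
Ell2 (chr13:75707260-75707319, plus strand): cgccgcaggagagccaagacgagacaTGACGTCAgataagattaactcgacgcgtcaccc
Retreg1 (chr15:25843124-25843183, plus strand): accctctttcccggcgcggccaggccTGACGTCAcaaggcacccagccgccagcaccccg
Dusp1 (chr17:26508582-26508641, minus strand): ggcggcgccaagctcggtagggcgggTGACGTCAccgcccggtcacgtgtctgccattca
Slc25a25 (chr2:32424183-32424242, minus strand): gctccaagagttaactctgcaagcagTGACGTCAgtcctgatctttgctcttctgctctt
Sgk1 (chr10:21993676-21993740, plus strand): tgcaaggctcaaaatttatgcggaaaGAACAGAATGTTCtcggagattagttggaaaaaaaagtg
The element begins 166 bases before the start in Btg2, 38 in Wsb1, 198 in Ell2, 148 in Retreg1, 143 in Dusp1 and 150 in Slc25a25, and the glucocorticoid element begins 188 bases before the start in Sgk1. The Dusp1 stretch also holds an E-box, which begins 126 bases before the start. Such a match describes the letters only and does not show that a factor was bound.

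Fewer transcripts fell than rose, and in none of the 6 were all exercised mice below all sedentary mice. Osgin1, which had the smallest p among them, is an oxidative stress-inducible growth inhibitor that NRF2 regulates. It was at 5.09, 6.13 and 6.79 in sedentary and at 4.54, 4.84 and 5.56 in exercised mice, a fall with a log2 difference of -1.16 (standard error 0.23, adjusted p = 0.0062), or 2.24-fold. All 12 exercised mice were below the sedentary mean and 9 were below the lowest sedentary mouse. Of 21 tested NRF2 and antioxidant genes, Osgin1 alone passed, and the list median was -0.06. Gclm, a subunit of the enzyme that starts glutathione synthesis, differed by -0.15 (unadjusted p = 0.011), and the small Maf protein Maff by 0.44 (unadjusted p = 0.0332).

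Rnf186, an endoplasmic reticulum ubiquitin ligase, was at 3.67, 4.71 and 5.50 in sedentary and at 2.86, 3.66 and 4.80 in exercised mice. It fell with a difference of -1.08 (standard error 0.25), and its adjusted p of 0.0491 was just under the threshold. Rnf186 passed in 6 of 22 fits that each left out 1 mouse, with adjusted p up to 0.117. The ranges overlapped widely, with 6 of 12 exercised mice below the lowest sedentary mouse. Gm4951, also named Ifgga2, an interferon-inducible GTPase, was at 7.34, 7.51 and 7.96 in sedentary and at 6.63, 7.00 and 7.41 in exercised mice. The difference of -0.59 (standard error 0.12, adjusted p = 0.0118) placed 11 of 12 exercised mice below the sedentary range. Bcar1, a scaffold of integrin signalling, fell by 0.49 on the log2 scale (standard error 0.10, adjusted p = 0.022), from 5.20 ± 0.25 (SD, n = 10) to 4.72 ± 0.18 (SD, n = 12).

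**Figure D3:**
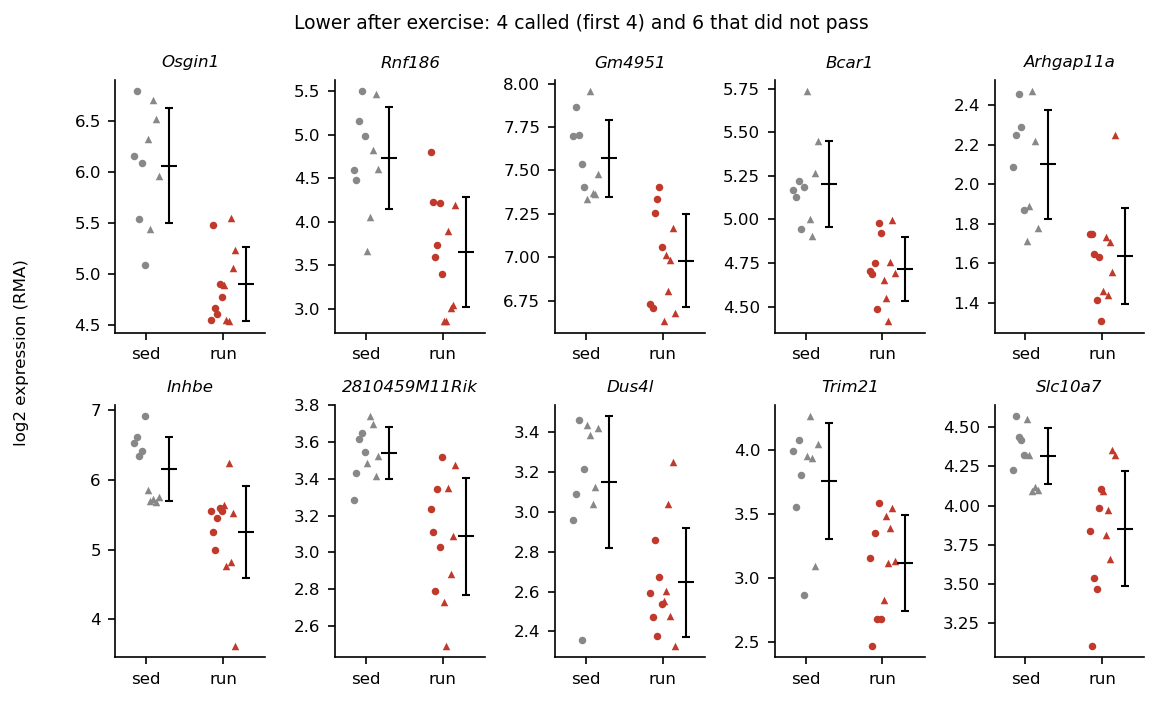
Log2 expression per mouse of the 4 named genes that fell (Osgin1, Rnf186, Gm4951, Bcar1) and of the 6 lower genes with the next smallest p, which did not pass; colours, symbols and bars as in the plot of the genes that rose. The groups overlap in all 10 genes, least in Gm4951 and Inhbe, where 11 of 12 exercised mice lie below the sedentary range.

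Next in line among lower genes, none passing, were Arhgap11a, Inhbe, 2810459M11Rik, Dus4l, Trim21 and Slc10a7. Inhbe, which encodes the hepatokine activin E, was at 5.68, 6.10 and 6.92 in sedentary and at 3.61, 5.49 and 6.24 in exercised mice, a difference of -0.90 (standard error 0.23, adjusted p = 0.0789). Trim21, an intracellular antibody receptor induced by interferon, differed by -0.64 (adjusted p = 0.131), with all 12 exercised mice below the sedentary mean. Of the circadian genes, the repressor Nr1d1 differed by -0.90 (unadjusted p = 0.00136, adjusted p = 0.219), while Nfil3 and Bhlhe40 were 0.79 and 0.43 higher (unadjusted p = 0.00713 and 0.00198). Of the 15 tested genes of the clock list 0 passed.

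Before adjustment, lower probe sets outnumbered higher ones. With no adjustment and p under 0.05, 502 were higher (2.71%) and 639 lower (3.45%), or 1141 together, against 926.1 that chance alone would give. Of these, 183 higher and 231 lower differed by more than 0.5 on the log2 scale, and 36 and 37 by more than 1. The balance depended on the scaling of the arrays. Quantile normalization gave 595 higher and 546 lower ones (52.1% higher), and median centring of each array 756 and 427 (63.9% higher). Of these 3 scalings, lower ones were in the majority on the deposited one only when no limit was set on size. Beyond 0.5 on the log2 scale, quantile normalization also gave more lower ones (196 higher and 216 lower). Median centring gave fewer (223 higher and 189 lower). All 37 risen and all 6 fallen probe sets kept their direction under both other scalings.

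Lists of lipid synthesis held no gene that passed. Over all 18522 tested probe sets, 8158 had values above 0 and 10364 below. Of 20 tested genes of cholesterol synthesis and uptake, 19 had values above 0, with a median of 0.24, and 3 had an unadjusted p under 0.05. They were Rdh11, a retinol dehydrogenase under sterol control (difference 0.47, unadjusted p = 0.00999), the farnesyl diphosphate synthase Fdps (0.49, unadjusted p = 0.0407) and the mevalonate pathway kinase Pmvk (0.38, unadjusted p = 0.0416). As a mean over the 20 genes, the mice ranged from 6.08 to 7.24 (median 6.92) when sedentary and from 6.51 to 7.67 (median 7.03) after exercise, so the groups overlapped over most of their range. Of 20 genes of fatty acid and triglyceride synthesis, 17 were above 0 (median 0.10), with Elovl3, an elongase, at 0.96 and the phosphatidate phosphatase Lpin1 at 0.59 (unadjusted p = 0.00825 and 0.00792). Fatty acid synthase (Fasn) and the carboxylase Acaca differed by -0.16 and 0.04, less than their standard errors of 0.38 and 0.18. The fatty acid oxidation list had 0 of 19 passing and a median of -0.02, which is that of all probe sets, and Cpt2, which frees carnitine-bound fatty acids inside mitochondria, differed by -0.02 (standard error 0.07).

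The interferon and macrophage lists leaned to lower values without a gene that passed. Of all 18522 tested probe sets, 10364 were below 0. Of 32 tested interferon-stimulated genes, 28 were below 0, with a median of -0.15, and 25 and 22 were below 0 after quantile normalization and median centring (median -0.13 and -0.11). The antiviral Mx2 (-0.42, unadjusted p = 0.013), the transcription factor Irf1 (-0.37, unadjusted p = 0.0186) and the GTPases Gbp3 and Irgm1 (-0.38 and -0.20, unadjusted p = 0.0186 and 0.0355) were lower before adjustment, besides Trim21. The Kupffer cell and macrophage markers had 13 of 14 genes below 0 and a median of -0.22. The scavenger receptor Marco (-0.73, unadjusted p = 0.0287) and the macrophage protein Cd5l (-0.61, unadjusted p = 0.0586) differed most clearly. Without sedentary mice 1 and 3 and exercised mouse 2, the median was -0.07 for the Kupffer list and -0.05 for the interferon list. Marco then differed by -0.36 and Cd5l by -0.32 (unadjusted limma p = 0.0974 and 0.247). These mice had been picked for their high mean over the same Kupffer genes, which include Marco and Cd5l. The smaller differences of that list without them are therefore no separate result. The part of immune cell content in the lower values of Gm4951, Trim21 and these lists was not tested. Of 23 acute-phase proteins 0 passed (median -0.02), and of 17 NF-kappaB and cytokine genes 0 passed (median 0.02), with the cytokine Il1b 0.69 and the inhibitor Nfkbia 0.28 higher (unadjusted p = 0.0111 and 0.0129).

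Most other lists stayed close to the median of all probe sets. The median was -0.12 over the 3 cholangiocyte genes, and the 1 adipocyte gene differed by -0.16. The 22 subunits of the respiratory chain and ATP synthase lay between -0.11 and 0.11 with 0 passing, and the 14 genes of vitamin E transport and metabolism between -0.35 and 0.13, again with 0 passing. Heat shock proteins had 0 of 11 passing, with Hspa1a and Hspa1b at -0.58 and -0.35 (unadjusted p = 0.0268 and 0.0369). In the list of the unfolded protein and amino acid stress response 0 of 15 passed, and Ppp1r15a, which restores translation after stress, came closest with 0.55 (standard error 0.13, adjusted p = 0.0592). Of 14 genes of bile acid synthesis and transport 0 passed, and the bile salt export pump Abcb11 differed by -0.16 (unadjusted p = 0.0384). Among 11 hepatokines 0 passed, with the activin antagonist Fst at 0.87 (unadjusted p = 0.00527). Of 16 genes of insulin receptor and IGF signalling 1 rose, which was Igfbp1 (median 0.02). Of 14 growth hormone and STAT5 genes and of 14 xenobiotic enzymes 0 passed (median -0.03 in both). Of the marker genes of hepatocytes (7), sinusoidal endothelial cells (9), stellate cells (8), cholangiocytes (3), neutrophils (2), T and NK cells (2), adipocytes (1) and skeletal muscle (1), 0 passed.

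**Figure D4:**
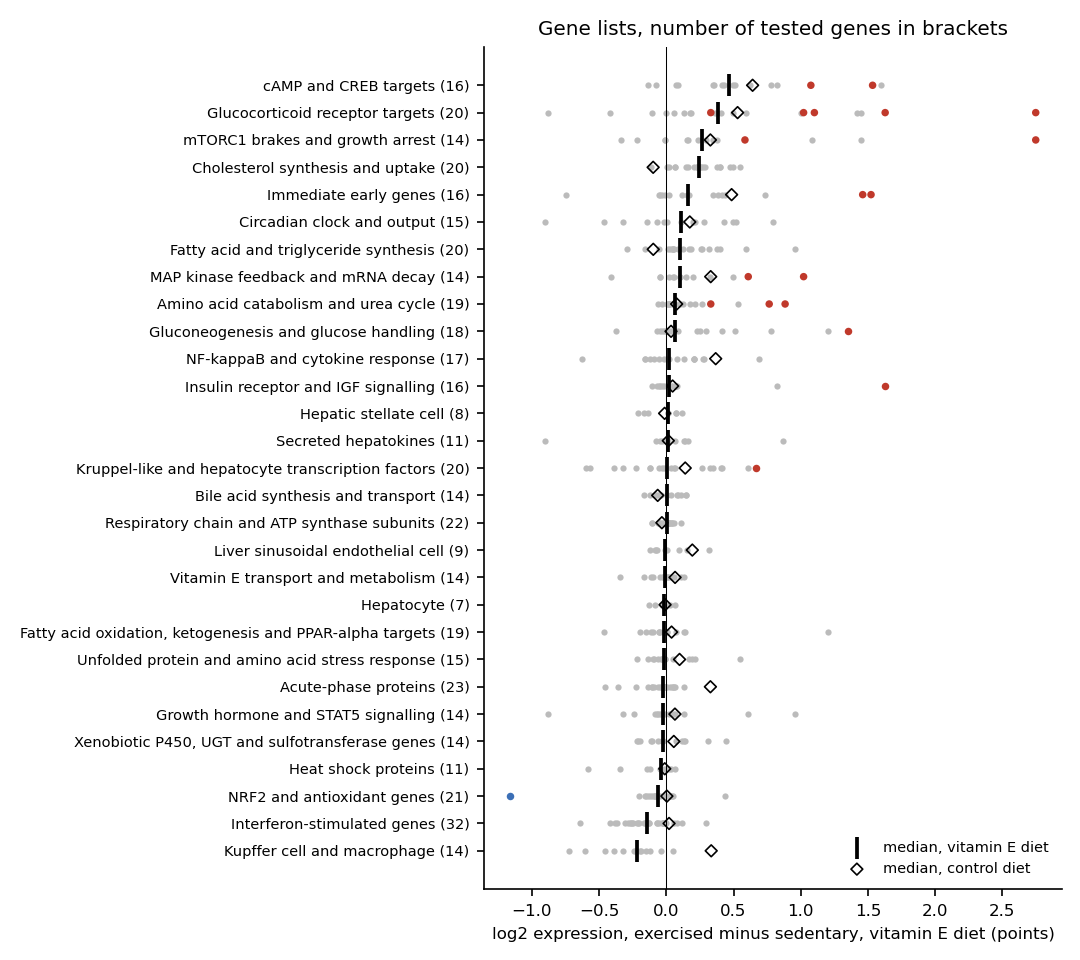
Exercise response on the vitamin E diet of every gene list with at least 7 tested genes (x axis, log2 difference; grey points, genes that did not pass; red, rose; blue, fell; bars, the list's median; diamonds, its median on the control diet). The lists of cyclic AMP, glucocorticoid and mTORC1 genes have the highest medians (0.46, 0.39 and 0.26) and the Kupffer list the lowest (-0.22) in all 22 mice. Without the 3 mice picked for high Kupffer values these medians are 0.34, 0.38, 0.19 and -0.07, and that of the cholesterol list is 0.20.

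Mice on the control diet, which shared no animal with those above, showed most of the same rises. There 111 probe sets rose (0.599%) and 15 fell (0.081%). Of the 37 that rose on the vitamin E diet all 37 had higher values on the control diet, and 29 also passed there, which is 78.4% of the 37 and 26.1% of the 111. Ddit4 rose by 2.75 and 2.64 on the vitamin E and the control diet, Igfbp1 by 1.63 and 1.57, and Sik1 by 1.53 and 1.47. The difference between the diets was 0.10 (standard error 0.35), 0.06 (standard error 0.38) and 0.06 (standard error 0.37) for these genes, with 95% intervals of -0.60 to 0.81, -0.71 to 0.82 and -0.68 to 0.81. Of the 6 that fell, 5 had lower values on the control diet, and 1 also passed there, 16.7% of the 6 and 6.67% of the 15. This was Osgin1, with a difference of -1.07 on the control diet.

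**Figure D5:**
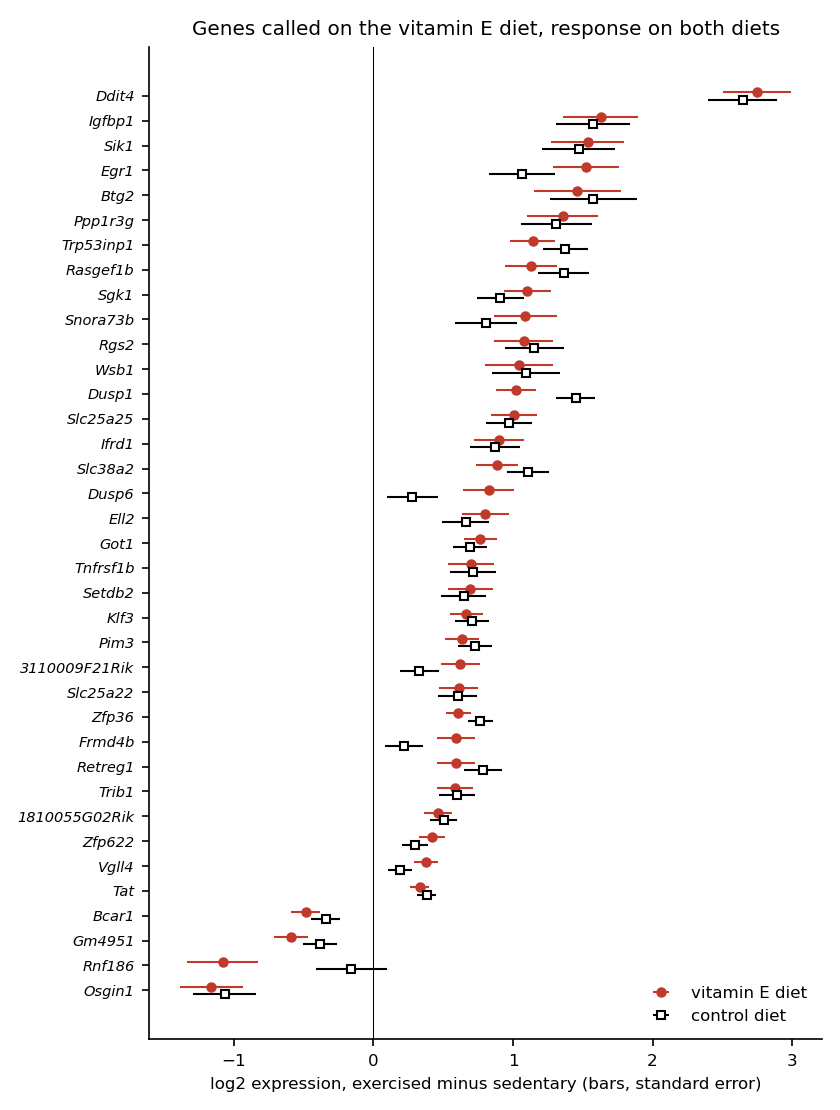
Log2 difference between exercised and sedentary mice (x axis, points with bars of 1 standard error) for the 33 named genes that rose and the 4 that fell on the vitamin E diet, with the control diet beside it (open squares). All 33 risen genes lie above 0 on both diets, and Rnf186, Dusp6 and Dusp1 are the genes with an unadjusted p under 0.05 for a difference between the diets.

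When the responses were compared directly, limma called 0 probe sets as differing between the diets after adjustment. With no adjustment and p under 0.05, the response on the vitamin E diet was higher for 330 (1.78%) and lower for 686 (3.7%), or 1016 together, against 926.1 from chance alone. This balance also depended on the scaling. It was close to even after quantile normalization, with 477 higher and 485 lower, and turned after median centring, with 843 higher and 300 lower. At the same unadjusted p, 176 higher and 348 lower differed by more than 0.5 on the log2 scale as deposited. Beyond that limit there were 208 and 292 after quantile normalization and 300 and 198 after median centring. Among the named genes that passed, the unadjusted p was under 0.05 for 3. Rnf186 differed by -1.08 on the vitamin E and by -0.16 on the control diet, and the difference between the responses was -0.92 (standard error 0.36, unadjusted p = 0.0138, adjusted p = 0.886). Dusp1 rose by 1.02 against 1.45 (difference -0.43, unadjusted p = 0.0396) and Dusp6 by 0.83 against 0.28 (difference 0.55, unadjusted p = 0.0388).

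The probe sets with the smallest p for a difference between the diets were of low expression. Bid, a trigger of apoptosis, averaged 2.35 ± 0.22 (SD, n = 10) without and 2.76 ± 0.22 (SD, n = 12) with exercise on the vitamin E diet, a difference of 0.41, against -0.22 on the control diet (unadjusted p of the comparison 0.000164). The tRNA dihydrouridine synthase Dus4l differed by -0.50 on the vitamin E and 0.22 on the control diet (unadjusted p = 0.000403). Of list members, Rdh11 differed by 0.47 and -0.34 (unadjusted p = 0.00213), Pdp2, a phosphatase that activates pyruvate dehydrogenase, by -0.37 and 0.34 (unadjusted p = 0.00259), and Vnn1, a target of PPAR-alpha, by -0.47 and 0.31 (unadjusted p = 0.0152). None of these passed after adjustment in either diet or in the comparison. The cholesterol list had a median of 0.24 on the vitamin E and -0.10 on the control diet, and the Kupffer list -0.22 and 0.33. On the control diet the mean over the Kupffer genes had group medians of 4.39 (sedentary) and 4.43 (exercised), and exercised mouse 6 stood apart at 6.25. Without that mouse the list median there was 0.17, and on the vitamin E diet it was -0.07 without the 3 mice named above. All these mice were picked by their values in the same genes, so the change of both medians is no separate result.

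Before adjustment, 5.96% of all probe sets were higher and 3.44% lower on the control diet. Of the 502 probe sets higher at an unadjusted p under 0.05 on the vitamin E diet, 378 had values of the same sign on the control diet and 188 (37.5%) were also higher there at that p. Of the 639 lower ones, 376 had the same sign and 69 (10.8%) were also lower there at that p. Over all 18522 probe sets, 9905 had the same sign on both diets. These counts were not compared by a test.

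The animal numbers in the labels begin with 24 or 27, with 6 exercised and 5 sedentary mice of each on the vitamin E diet. All 37 risen and all 6 fallen probe sets kept their direction within both number series. They were called on these same mice, so the shared direction is no separate support. Of the 37 and the 6, 6 and 0 passed in series 24 alone and 3 and 1 in series 27 alone, from fewer mice. Ddit4 differed by 3.05 and 2.45, Osgin1 by -1.10 and -1.22 and Rnf186 by -0.95 and -1.21 in series 24 and 27. Without sedentary mice 1 and 3 and exercised mouse 2, 18 probe sets rose and 3 fell, of which 18 were among the 37 and 2 among the 6. Ddit4 (2.59, adjusted p = 6.53e-08), Igfbp1 (1.36, adjusted p = 0.0136) and Osgin1 (-1.27, adjusted p = 0.012) passed in these 19 mice together with Sik1, Egr1, Trp53inp1, Rasgef1b, Sgk1, Rgs2, Dusp1, Slc25a25, Slc38a2, Got1, Klf3 and Zfp36. Btg2 (1.37, adjusted p = 0.151), Ppp1r3g (1.19, adjusted p = 0.0695), Rnf186 (-1.10, adjusted p = 0.16), Gm4951 (-0.53, adjusted p = 0.141) and Bcar1 (-0.48, adjusted p = 0.124) kept their direction but did not pass. In all, 19 of the 33 named genes that rose did not pass there, with adjusted p from 0.0507 (Snora73b) to 0.268 (Slc25a22), among them Tat (0.052), Wsb1 (0.251), Ifrd1 (0.13), Dusp6 (0.114) and Trib1.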

How the data were processed

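Liver RNA was measured on 44 arrays (Affymetrix Mouse Gene 2.1 ST), each from a different mouse. The authors deposited log2 values from RMA in Affymetrix Expression Console, and these were taken unchanged. Medians of the arrays ranged from 1.53 to 1.669. Precision is limited by how many arrays there are. Of 41345 probe sets, a probe set was kept where any group averaged over 4 on the linear scale (18522, of which 11565 had 1 gene symbol, 878 several and 6079 none, for 10921 genes). The annotation of the array gave the symbols.

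All 4 groups entered 1 fit in limma 3.58.1 under R 4.3.3 (lmFit, eBayes, two-sided), and the exercise effect on each diet and their difference were tested as contrasts, adjusted by Benjamini and Hochberg's method across the 18522 kept probe sets, at a threshold of 0.05. The procedure was tested on simulated data. In a first single draw the share of false calls was above the limit set for it, and the test was then changed to several pooled draws with a new limit, which it met. The labels name the mice as biological replicates. A list gene was read from its probe set with the highest mean. The text names all called genes with 1 symbol or summarises them, lower genes with the next smallest p up to 10, up to 5 genes per list by p, up to 5 genes per direction for the comparison of diets, and genes discussed in the study. The comparison, its members and the 25 process and 12 marker lists were chosen with earlier results of these data known. The other 3 marker lists (B cell, erythroid, acinar) had no tested gene. Alternatives covered the samples, filter, scaling, moderation, array weights, number series, replicate block, single mice, probe sets and the threshold of the methods. Sedentary mice 1 and 3 and exercised mouse 2 were picked from their marker values. Leaving out each other mouse on the vitamin E diet was also added after seeing the data, as was leaving out exercised control mouse 6. Replicate numbers did not pair the mice. Promoter windows came from RefSeq (GRCm38.p6), and figures were drawn with Python 3.11.15 and matplotlib 3.10.9.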

Additional observations from a re-analysis of the deposited data

Results flagged for a closer look

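In 138 sets of sedentary mice on the vitamin E diet (10 mice, 1 set per named gene or list mean), 16 had a mouse far from the other 9 by Dixon's criterion, where chance flags about 1 in 20. Mouse 1 was high for the list means of acute-phase proteins (9.74, the others 8.36 ± 0.15, SD), neutrophil markers (5.56, the others 1.41 ± 0.46), the NF-kappaB and cytokine response (4.71) and xenobiotic enzymes (8.04), and for Rgs2 (6.26). Mouse 3 was low for Igfbp1 (7.03) and high for Marco (5.82, the others 2.13 ± 0.78). Mouse 5 was high for Cebpb (6.14) and Nfkbia (7.404) and low for Arg1 (10.28) and Atf4 (8.56). Mouse 4 was low for Dus4l (2.36) and Cited2 (5.66) and high for the single tested skeletal muscle gene (3.20). Mouse 8 was high for Btg2 (6.30) and mouse 7 for Retreg1 (6.90).

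The exercise response differed between the diets at an unadjusted p under 0.05, never after adjustment, for the following genes, given as the vitamin E minus the control response on the log2 scale. It was smaller, or more negative, on the vitamin E diet for Dusp1 (-0.43), Rnf186 (-0.92), Arhgap11a (-0.46), Dus4l (-0.72), Trim21 (-0.83), Slc10a7 (-0.55), Srrm4 (-0.70), Mill2 (-0.80), Zfp703 (-0.68), Tmed2 (-1.17), Vnn1 (-0.77), Pdp2 (-0.72), Mx2 (-0.53), Cd5l (-1.12), Zfp36l2 (-0.73) and Gadd45g (-1.18). It was larger for Dusp6 (0.55), Bid (0.63), 4930483K19Rik (0.82), BC002059 (0.67), Gm15455 (0.89), Brf2 (0.62) and Rdh11 (0.81).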

How the results depend on the processing

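On the vitamin E diet, 37 probe sets rose and 6 fell. Array weights gave 11 lower ones. Fitted without the control diet there were 37 and 9, of which 30 and 5 were among the 37 and 6. With the mice of number series 24 alone 6 were higher and 1 lower, and with series 27 alone 3 and 1, from fewer mice. Without sedentary mice 1 and 3 and exercised mouse 2 together there were 18 and 3. Leaving out 1 mouse at a time gave 25 to 42 higher and 3 to 11 lower ones, lowest without sedentary mouse 9 (25 and 3), while the lower count was highest without sedentary mouse 6 (11). At the threshold of the study's methods, an unadjusted p with a fold change of medians above 1.2, 365 were higher and 450 lower. The fit with the replicate number as a replicate block gave 34 and 7 (102 and 12 on the control diet, 0 for the comparison of diets), of which 28 and 4 were among the 37 and 6. Correlations of same-numbered mice lay between -0.0366 and 0.0945, with 0 of 10 pairs over 0.1 and 1 sedentary mouse closest to its own number. The control diet counts of 111 and 15 became 91 and 8 without exercised control mouse 6, 61 and 4 with only its own groups fitted, 72 and 6 without the expression filter, 67 higher after median centring, 9 and 1 in series 24, 14 and 2 in series 27, and 733 and 397 at the threshold of the methods. The 0 differing between diets became 830 at that threshold and stayed 0 in each other fit. For single genes, Srrm4 turned to 0.17 in series 27 alone. The cause of these changes was not tested, beyond the smaller number of mice where mice were left out.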
